A study of Homo sapiens with 12 samples.

Results

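The megakaryocyte and platelet genes comprised 9 genes chosen by symbol: ITGA2B, ITGB3, GP1BA, GP1BB, GP9, PF4, VWF, FLI1 and THBS1. All 9 were found among the 19447 gene symbols of the deposited count table. Messenger RNA had been sequenced in 12 libraries of K562 cells, 3 in each of 4 groups, and the comparisons asked which transcripts differ with imatinib (IM) resistance and with lycorine.

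Megakaryocytes are the large bone marrow cells that shed platelets, and they arise from a progenitor shared with red cells. ITGA2B and ITGB3 encode both subunits of the platelet fibrinogen receptor (glycoprotein IIb and IIIa), while GP1BA, GP1BB and GP9 encode the chains of the receptor that holds platelets to von Willebrand factor. PF4, VWF and THBS1 encode the granule proteins platelet factor 4, von Willebrand factor and thrombospondin-1, and FLI1 encodes an ETS transcription factor that acts on many promoters of this lineage. The K562 line can be driven toward either erythroid or megakaryocytic features by chemicals, and it is therefore a usual model for the choice between these lineages.

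K562 is an established human chronic myeloid leukemia line that carries the BCR-ABL fusion, and all 4 groups derive from it. The K562 group received no drug. The K562+L group received 6 µM lycorine, an alkaloid of the Amaryllidaceae. K562/IM is a subline that the study selected with stepwise increases of IM, an inhibitor of the BCR-ABL kinase, and then kept in medium with 5 µM IM. It is 1 selected subline, so that a difference between it and K562 cannot be told apart from other changes acquired in long culture. The K562/IM+L group is K562/IM given 6 µM lycorine. Neither the time of exposure before sequencing nor whether IM was present at harvest is stated for the sequenced cells. The sample titles number the K562/IM+L group differently from the study's own plots. ABCB1, a drug efflux pump, averaged 1.76 ± 0.0930 CPM (a count scaled to library size) in K562, 4.28 ± 0.759 in K562+L and 23.6 ± 2.07 in K562/IM, but 0.752 ± 0.290 in the K562/IM+L libraries (SD, n = 3 in each). It was thus lower in them than in K562 (adjusted p = 0.0143, edgeR), whereas it was higher than in K562 in both K562/IM (adjusted p = 5.1e-07) and K562+L (adjusted p = 0.00213). For both reasons the 3 are named here as libraries labelled K562/IM+L, and every direction drawn from them rests on that label. The paper reported, by Western blot, less P-gp, the ABCB1 protein, in K562/IM given lycorine than in K562/IM. The RNA was lower in that direction too, and the reason given here is only its level below K562. The comparison of K562+L with K562 and that of K562/IM with K562 do not use the labelled libraries.

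The labelled cell type was examined first. None of 11 genes listed as markers of the K562 line, among them GATA1, TAL1, BCR and ABL1, had a mean under 1 CPM in any group. All 4 groups passed, so that this cannot tell them apart, and gene counts do not show the BCR-ABL fusion. In the labelled libraries against K562/IM, 7 of the 11 were higher and 1 lower, beside 14.7% and 13.8% of all genes tested. These counts are at an edgeR adjusted p under 0.05 and a log2 fold change beyond 1 in size. CPM is the count of a gene relative to its library's size, with sizes set by TMM normalization over the 12 libraries. Total counts per library ran from 75093844 to 107344598, and 3 counts, the limit that a count of 0 allows, correspond to 0.0280 to 0.0419 CPM. Low counts fell on or just above multiples of 4 more often than an even spread would give, in 67.9% of the 23289 values up to 25, where an even spread gives 52%. A count of 1 is included as the number just above 0. Low counts need not be evenly spread, so that 52% is a rough reference. If 1 sequenced fragment is worth 4 counts, that limit becomes 0.112 to 0.167 CPM. The limits cover counting error only.

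Promoter sequences were available for 4 members, and they are printed because GATA, RUNX and ETS factors, FLI1 among the last, are the known regulators of this lineage, and so that the sequence can be read beside the levels. Each sequence is the 250 bases before the RefSeq start of the gene (GRCh38.p14), 5′ to 3′ on the strand of the gene. Capitals mark a GATA match (AGATA or TGATA, then a further A or G) or an ETS match (a C or an A before GGAAG) on either strand, so that a match on the other strand appears as its reverse complement.
ITGA2B chr17:44389650-44389899 minus strand: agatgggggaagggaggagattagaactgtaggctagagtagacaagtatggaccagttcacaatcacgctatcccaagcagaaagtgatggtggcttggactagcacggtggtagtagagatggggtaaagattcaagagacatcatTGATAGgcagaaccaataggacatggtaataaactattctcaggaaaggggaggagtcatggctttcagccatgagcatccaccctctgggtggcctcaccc
GP1BB chr22:19723289-19723538 plus strand: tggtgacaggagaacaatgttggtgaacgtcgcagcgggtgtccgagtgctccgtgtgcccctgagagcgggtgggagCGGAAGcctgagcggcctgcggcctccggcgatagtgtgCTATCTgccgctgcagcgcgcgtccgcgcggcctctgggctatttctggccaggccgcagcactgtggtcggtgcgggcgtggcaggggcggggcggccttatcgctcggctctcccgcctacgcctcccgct
GP9 chr3:129060529-129060778 plus strand: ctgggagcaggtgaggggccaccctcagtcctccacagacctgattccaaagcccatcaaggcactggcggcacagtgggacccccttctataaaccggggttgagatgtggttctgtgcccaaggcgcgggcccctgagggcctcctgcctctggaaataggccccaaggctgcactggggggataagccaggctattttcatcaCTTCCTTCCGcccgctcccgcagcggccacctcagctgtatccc
THBS1 chr15:39580829-39581078 plus strand: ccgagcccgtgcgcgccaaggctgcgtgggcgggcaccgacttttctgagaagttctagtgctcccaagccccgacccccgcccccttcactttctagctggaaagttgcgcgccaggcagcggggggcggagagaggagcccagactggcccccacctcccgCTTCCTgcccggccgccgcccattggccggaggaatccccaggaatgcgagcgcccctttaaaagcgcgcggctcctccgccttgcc

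The ITGA2B promoter held 1 GATA match, TGATAG, which begins 102 bases before the start. The GP1BB promoter held 1 ETS match 172 bases before the start and 1 GATA match on the other strand, whose first base lies 133 bases before it. The GP9 promoter held 2 overlapping ETS matches on the other strand, beginning 44 and 40 bases before the start, and the THBS1 promoter held 1 ETS match, 87 bases before it. A RUNX match (TGNGGT, where N is T or C), left in lower case, was found in GP1BB and GP9, 70 and 143 bases before the start. Of the 27305 promoters of the RefSeq table in the same 250-base window, 22.9% held a GATA match, 41% an ETS match and 16.1% a RUNX match, so that a match in these letters is common. The RefSeq start of ITGA2B lies 144 bases upstream of the start of the gene in GENCODE release 29, and the RefSeq start of GP1BB lies 594 bases inside the GENCODE gene.

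ITGA2B, the alpha subunit of the fibrinogen receptor and an early surface marker of the lineage, was, of the 6 members tested, the one that differed most in fold between K562/IM and K562. The gene lies on chromosome 17 of GRCh38 from 44372180 to 44389505 on the minus strand, and no other annotated gene overlaps it. Its levels in the 3 libraries of each group were 5.35, 4.35 and 4.79 CPM in K562, 2.42, 3.56 and 3.20 CPM in K562+L, and 184, 179 and 195 CPM in K562/IM. Those labelled K562/IM+L were at 18.0, 19.5 and 16.6 CPM. The order was thus K562+L, K562, K562/IM+L and K562/IM from low to high, and no neighbouring groups overlapped. From 4.83 ± 0.502 (SD, n = 3) CPM in K562 it rose to 186 ± 8.29 (SD, n = 3) CPM in K562/IM, 38.5-fold, at a log2 fold change of 5.27 (standard error, SE, 0.11, adjusted p = 1.5e-07 by edgeR). In the libraries with the K562/IM+L label it fell from that level 10.1-fold, to 18.0 ± 1.46 (SD, n = 3) CPM, with a log2 fold change of -3.34 (SE 0.087, adjusted p = 2.9e-07).

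In the IM-sensitive line the ITGA2B level was also lower with lycorine, 3.06 ± 0.578 (SD, n = 3) CPM in K562+L, but the difference was small. The log2 fold change was -0.66 (SE 0.19, adjusted p = 0.0263), past the p threshold and under the fold threshold of 1 on the log2 scale that a call required. The lycorine effect in K562/IM minus that in K562 was -2.70 on the log2 scale (SE 0.18, adjusted p = 2.1e-07 for the interaction over all 12 libraries). The labelled libraries nevertheless stayed above both groups of the sensitive line. Their log2 fold change was 1.88 (SE 0.14, adjusted p = 4.2e-05) against K562 and 2.53 (SE 0.17, adjusted p = 8.1e-06) against K562+L.

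ITGB3, the beta subunit that pairs with ITGA2B on platelets and with the alpha-v subunit on other cells, lies on chromosome 17 from 47253846 to 47311816 on the plus strand. It was at 0.589, 0.441 and 0.257 CPM in K562, at 0.427, 0.266 and 0.547 CPM in K562+L, and at 11.1, 9.77 and 12.8 CPM in K562/IM. In the labelled libraries it was at 3.11, 2.71 and 5.76 CPM. The sensitive line sat near the low end of what the libraries can measure, with 20 to 57 counts per library, and its groups overlapped, whereas both groups of the resistant line stood above them and apart from each other. The log2 fold change of K562/IM against K562 was 4.70 (SE 0.28, adjusted p = 9.7e-06), that is 26-fold. Against K562/IM, the labelled libraries were 2.84-fold lower, with a log2 fold change of -1.51 (SE 0.29, adjusted p = 0.00261). Against K562 and K562+L they were 8.81-fold and 9.08-fold higher (adjusted p = 6.9e-04 and 2.4e-04).

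The difference between the lines in the ITGB3 response to lycorine was -1.48 (SE 0.51, adjusted p = 0.0233), and the call was lost when any 1 of 4 libraries was left out. Without K562 replicate 3, K562+L replicate 3, K562/IM replicate 3 or K562/IM+L replicate 1 the adjusted p was 0.0526, 0.0736, 0.0527 and 0.0511 in turn. Of the 4394 exon bases of ITGB3, 2266 are shared with overlapping annotated genes, among them AC068234.1 on the same strand, and how reads in shared bases were counted is not stated.

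Set per exon length, as FPKM (CPM per kilobase of exon), the subunits were unequal. In K562/IM, ITGA2B stood at 33.5 ± 1.49 (SD, n = 3) FPKM and ITGB3 at 2.55 ± 0.350 (SD, n = 3) FPKM. The ratio of ITGA2B to ITGB3 per length was 12 to 14.5 over the K562/IM libraries and 2.28 to 5.71 over the labelled libraries, without overlap. In K562 and K562+L it was 7.19 to 14.7 and 4.49 to 10.6, ranges that overlapped and that rest on few ITGB3 counts.

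**Figure D1:**
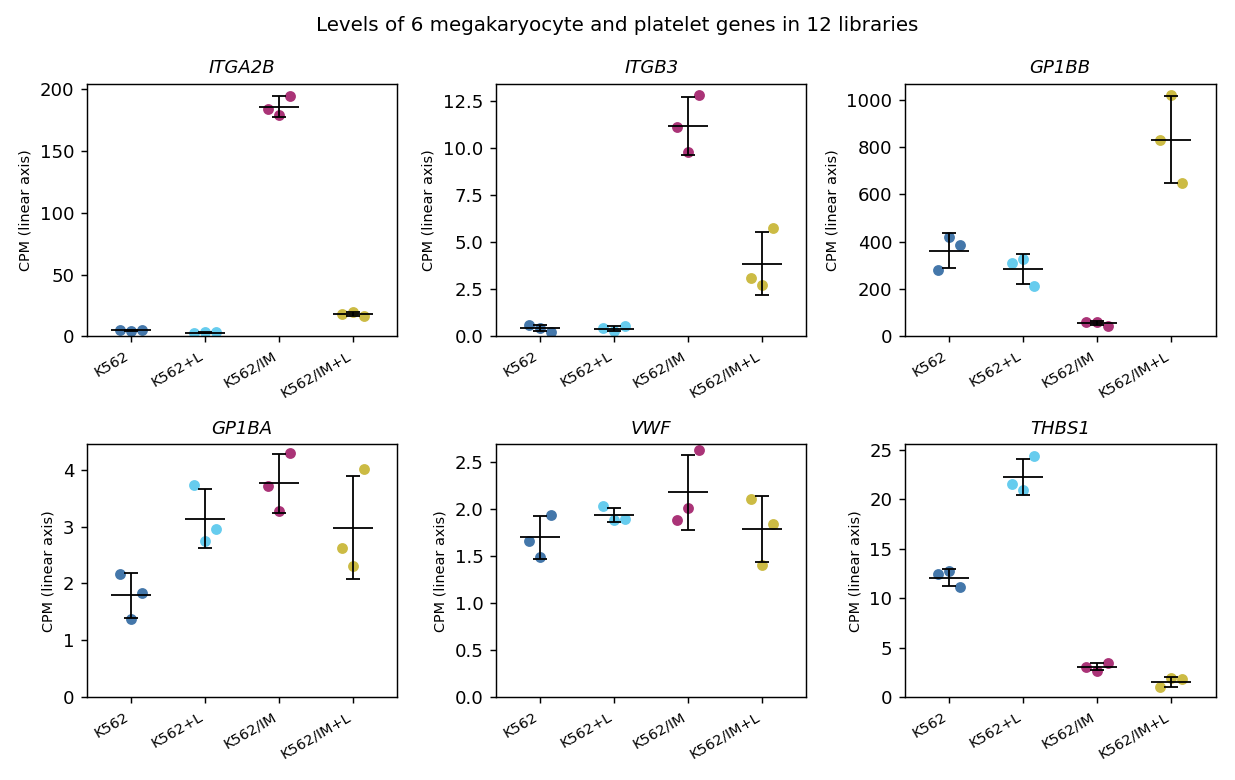
Level of the 6 members with more than a few counts, in CPM on a linear axis that starts at 0 in each panel. Each point is 1 library, and the bar and whiskers are the mean and SD of the 3 libraries of a group. ITGA2B and ITGB3 were highest in K562/IM, GP1BB was lowest there and highest in the libraries labelled K562/IM+L, THBS1 was highest in K562+L, and the VWF groups overlapped.

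GP1BA encodes the chain of the glycoprotein Ib complex that binds von Willebrand factor, and lies on chromosome 17 from 4932297 to 4935030 on the plus strand. It was low throughout. The libraries held 2.17, 1.38 and 1.83 CPM in K562, 3.74, 2.75 and 2.95 CPM in K562+L, and 3.72, 3.27 and 4.30 CPM in K562/IM. Those labelled K562/IM+L held 2.63, 2.30 and 4.02 CPM. Every K562 library was below every other library, and the remaining 3 groups overlapped. GP1BA was 2.10-fold higher in K562/IM than in K562, with a log2 fold change of 1.07 (SE 0.22, adjusted p = 0.00408). That call lies at the fold threshold: without K562 replicate 2 the log2 fold change was 0.91, and without K562/IM replicate 3 it was 0.96.

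In K562+L the GP1BA log2 fold change against K562 was 0.81 (SE 0.23, adjusted p = 0.0266), under the fold threshold. The adjusted p of edgeR was 0.0873 and 0.0568 without K562 replicates 2 and 3. Without K562+L replicates 1 and 3 it was 0.0984 and 0.0569. In the labelled libraries the GP1BA log2 fold change was -0.31 (SE 0.24, adjusted p = 0.298) against K562/IM. The interaction was -1.14 (SE 0.35, adjusted p = 0.0134). Of its 2501 exon bases, 97 are shared with CHRNE on the opposite strand.

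GP1BB encodes the beta chain of the same complex, joined to GP1BA by disulfide bonds, and lies on chromosome 22 from 19722945 to 19724771 on the plus strand. It was the most abundant member per exon length in K562, in K562+L and in the labelled libraries, while in K562/IM its 35.8 ± 5.70 (SD, n = 3) FPKM lay near the 33.5 FPKM of ITGA2B, and its order over the groups was unlike that of its partner. The libraries held 279, 419 and 388 CPM in K562, 312, 327 and 212 CPM in K562+L, and 59.9, 61.3 and 45.3 CPM in K562/IM. Those labelled K562/IM+L held 831, 1020 and 648 CPM. K562/IM was lowest, K562 and K562+L overlapped in the middle, and the labelled libraries were above all others. The level fell from 362 ± 73.5 (SD, n = 3) CPM in K562 to 55.5 ± 8.85 (SD, n = 3) CPM in K562/IM, 6.52-fold, with a log2 fold change of -2.71 (SE 0.18, adjusted p = 1.8e-05). In the labelled libraries it was 831 ± 184 (SD, n = 3) CPM, 15.2-fold above K562/IM, with a log2 fold change of 3.93 (SE 0.20, adjusted p = 3.5e-06).

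Lycorine in K562 gave GP1BB a log2 fold change of -0.35 (SE 0.20, adjusted p = 0.192), and the interaction of lycorine and line was 4.26 (SE 0.31, adjusted p = 4.5e-07). Against K562, the labelled libraries had a log2 fold change of 1.18 (SE 0.21, adjusted p = 0.00262), which without K562/IM+L replicate 2 was 1.00 and no longer past the fold threshold. Per exon length GP1BB stood at 35.8 FPKM in K562/IM and 535 FPKM in the labelled libraries, against 1.51 and 1.19 FPKM for GP1BA. The ratio of GP1BB to GP1BA per length was 17.0 to 30.2 over the K562/IM libraries and 116 to 711 over the remaining libraries.

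The GP1BB values carry a limit from the annotation. All 1553 exon bases of GP1BB are shared with overlapping genes on the same strand, the septin gene SEPTIN5 and a readthrough transcript of both, and how the counting split such reads is not stated. SEPTIN5 ends at 19724224, inside GP1BB, and the bases of GP1BB past that point are shared with the readthrough transcript alone. SEPTIN5, a cytoskeletal protein of the septin family, was therefore examined beside it. It stood at 680 ± 89.2 CPM in K562, 547 ± 48.2 CPM in K562+L, 250 ± 7.11 CPM in K562/IM and 765 ± 77.4 CPM in the labelled libraries (SD, n = 3 in each). SEPTIN5 fell from K562 to K562/IM by 1.44 on the log2 scale (adjusted p = 2.2e-05), and in the labelled libraries it stood 1.64 above K562/IM on that scale (adjusted p = 4.3e-06). The count ratio of GP1BB to SEPTIN5 was 0.482 to 0.591 over the K562 libraries and 0.426 to 0.595 over K562+L. It was 0.178 to 0.254 over K562/IM and 0.953 to 1.29 over the labelled libraries. The genes moved in the same direction in these comparisons but by unequal amounts, and the part of each in the shared reads was not tested.

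**Figure D2:**
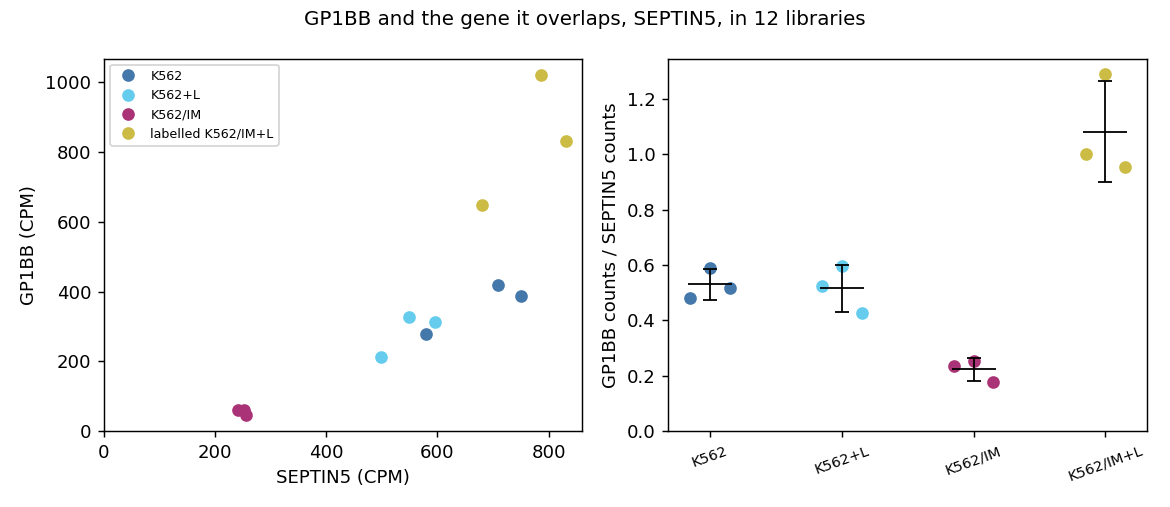
Left, GP1BB against SEPTIN5, the gene that overlaps it on chromosome 22, with both levels in CPM and 1 point per library. Right, the ratio of GP1BB counts to SEPTIN5 counts in each library, with the mean and SD of each group. The K562/IM libraries lie lowest on both axes and in the ratio, from 0.178 to 0.254, and the labelled libraries lie highest in the ratio, from 0.953 to 1.29, at SEPTIN5 levels that overlap those of K562.

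GP9, the chain of the complex that platelets need to carry the complex on their surface, was not detectable in most libraries. The gene lies on chromosome 3 from 129060767 to 129062406 on the plus strand. It had 0 counts in 10 of the 12 libraries, and 7 and 14 counts in replicates 2 and 3 labelled K562/IM+L. Those counts amount to 0.0977 and 0.149 CPM, values near the limits given above for a count of 0.

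THBS1 was the granule protein gene whose groups stood apart. It encodes thrombospondin-1, an adhesive glycoprotein of the alpha granule that other cell types also make, and lies on chromosome 15 from 39581079 to 39599466 on the plus strand. The libraries held 12.5, 12.8 and 11.1 CPM in K562, 21.6, 21.0 and 24.4 CPM in K562+L, and 3.09, 2.69 and 3.42 CPM in K562/IM. Those labelled K562/IM+L held 0.994, 1.90 and 1.80 CPM. The order ran from the labelled libraries through K562/IM and K562 to K562+L, with no overlap between neighbours. THBS1 fell 3.96-fold from K562 to K562/IM, with a log2 fold change of -1.99 (SE 0.13, adjusted p = 1.7e-05). It was thus lower in K562/IM where ITGA2B and ITGB3 were higher.

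By the interaction, the THBS1 response to lycorine differed between the lines as labelled, though the difference was called in neither line. In K562+L its log2 fold change was 0.88 (SE 0.11, adjusted p = 0.00109), that is 1.84-fold higher and under the fold threshold. In the labelled libraries against K562/IM it was -0.95 (SE 0.27, adjusted p = 0.0171), also under the threshold. Without K562/IM replicate 2, K562/IM+L replicate 2 or K562/IM+L replicate 3 that value was -1.04, -1.10 and -1.06 and was called. The interaction was -1.85 (SE 0.28, adjusted p = 1.2e-04). The labelled libraries were 7.87-fold below K562 and 14.6-fold below K562+L (adjusted p = 9.0e-05 and 6.6e-06). Of the 9158 exon bases, 694 are shared with overlapping genes such as FSIP1.

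VWF, the ligand of the glycoprotein Ib complex, lies on chromosome 12 from 5948874 to 6124770 on the minus strand. Its level was low in all libraries, from 1.41 to 2.63 CPM. It was at 1.70 ± 0.229 CPM in K562, 1.94 ± 0.0780 CPM in K562+L, 2.18 ± 0.398 CPM in K562/IM and 1.79 ± 0.355 CPM in the labelled libraries (SD, n = 3 in each). All neighbouring groups overlapped, and the log2 fold changes of the 5 comparisons ran from -0.26 to 0.36 with adjusted p of 0.193 to 0.861. Its interaction was -0.47 (SE 0.30, adjusted p = 0.193). The standard errors of 0.20 to 0.24 leave differences of that order undetermined.

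PF4 and FLI1 were at or near 0. PF4, a chemokine stored in alpha granules and a late marker of the lineage, lies on chromosome 4 from 73981077 to 73982124 on the minus strand. It had 4, 3 and 5 counts in 1 library each of K562, K562+L and the labelled group, and 0 counts in the other 9 libraries. Reads may be divided between PF4 and its near-identical copy PF4V1, which had no count in any library. FLI1 lies on chromosome 11 from 128686535 to 128813267 on the plus strand, and had 4 counts in K562 replicate 2 and 0 in the other 11 libraries. The groups could not be ranked for FLI1, PF4 or GP9 at this depth, and the low-count filter removed the 3 genes from every test.

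Counting the members by comparison, 6 of 9 passed the low-count filter in each. Between K562+L and K562, 0 of the 6 were called, a call being an adjusted p under 0.05 together with a log2 fold change beyond 1 in size, where 2.38% of the 12927 genes tested were called higher and 4.01% lower. DESeq2 also called 0, 0 had an unadjusted p under 0.05 with that fold, and 3 (THBS1, GP1BA and ITGA2B) passed at either p without the fold threshold. Between K562/IM and K562, 3 were called higher (ITGA2B, ITGB3 and GP1BA) and 2 lower (GP1BB and THBS1), where 13.9% of genes were called higher and 5.29% lower. For the labelled libraries against K562/IM, 1 was called higher (GP1BB) and 2 lower (ITGA2B and ITGB3), against 14.7% and 13.8% of genes.

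Against K562, the labelled libraries had 3 members higher (ITGA2B, ITGB3 and GP1BB) and 1 lower (THBS1), beside 14.9% and 8.91% of genes, and the same members moved in the same directions against K562+L, beside 19.1% and 12.6% of genes. The interaction passed for 5 of the 6 members and for 61.7% of all 13995 genes tested, so that passing it was common. With so few members, these counts show directions rather than a share particular to them. The comparisons share their control libraries and are not independent of each other.

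**Figure D3:**
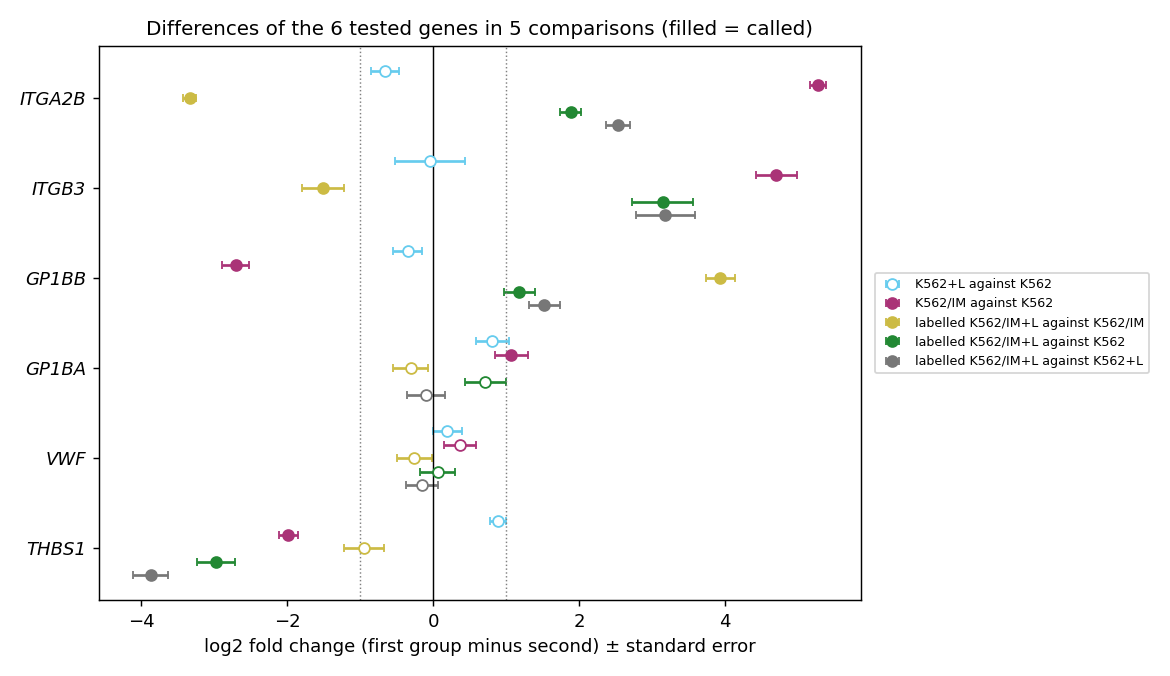
Log2 fold change of the 6 members that passed the low-count filter, in each of the 5 comparisons. Whiskers are the standard error, filled points are called, and dotted lines mark the fold threshold of 1 in each direction. ITGA2B and ITGB3 lie above 0 in K562/IM against K562 and below 0 for the labelled K562/IM+L libraries against K562/IM, and GP1BB does the opposite.

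Markers of other lineages moved with these groups. The 18 erythroid markers summed to 8320 to 10800 CPM in K562, 6040 to 6620 in K562+L, 3980 to 4140 in K562/IM and, far above these, 44500 to 61100 in the labelled libraries. For both GP1BB and this sum, K562/IM was thus lowest and the labelled libraries highest. K562 and K562+L lay between, and their libraries overlapped for GP1BB. Of the 18 markers, 10 were called lower and 1 higher in K562/IM against K562, and 17 were called higher in the labelled libraries against K562/IM. SLC4A1, the anion exchanger of red cells, averaged 0.122 ± 0.0564 CPM in K562/IM and 985 ± 55.0 CPM in the labelled libraries (SD, n = 3 in each). The part of these changes in the values of GP1BB was not tested.

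The 16 granulocyte and monocyte markers, led by LYZ, summed to 222 to 226 CPM in K562/IM, against 122 to 126 in K562, 121 to 140 in K562+L and 85.7 to 92.9 in the labelled libraries. Of these, 5 of the 11 tested were called higher in K562/IM than in K562. In the labelled libraries against K562, 4 of the 11 were called higher and 2 lower, with a median log2 fold change of 0.77. There the sum was lower while the median was above 0, and LYZ averaged 111 CPM in K562 and 78.1 CPM in the labelled libraries. SPI1, a myeloid transcription factor, averaged 2.59 ± 0.262 CPM in K562 and 33.7 ± 1.24 CPM in K562/IM (SD, n = 3 in each), and SPI1, ITGA2B and ITGB3 all had their highest values in K562/IM. The 10 lymphoid markers summed to 25.6 to 27.5 CPM in K562/IM and to 0.970 to 7.66 CPM elsewhere. Most of the K562/IM sum was 1 marker, CD3D, at 21.3 CPM or more in each library, and 7 of the 10 had a mean under 1 CPM there. Only 4 of the 10 were tested in K562/IM against K562, of which 3 were called higher and 0 lower. The 11 endothelial markers, a lineage that also expresses VWF and THBS1, summed to 175 to 246 CPM in K562 and 65.0 to 115 CPM elsewhere. Most of that sum was EGFL7, a secreted protein of vessels, at a mean of 185 CPM in K562 and 47.8 CPM in K562/IM. Of the 6 endothelial markers tested in K562/IM against K562, 3 were called higher and 1, EGFL7, lower, with a median log2 fold change of 1.58, so that the sum and the median moved in opposite directions. CDH5, which defines endothelium, had a mean of 0.0159 CPM or less in every group. In bulk RNA, fewer cells of a type and less RNA per cell cannot be told apart, and the part of these lineages in the members' values was not tested.

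The wider program was described with 106 other genes of the lineage, in 5 lists by role, of which 105 were in the table. These lists were chosen with results of the same libraries known. In K562/IM against K562, 28 of the 90 tested were called higher and 7 lower, beside 13.9% and 5.29% of all genes tested. The median log2 fold change was 0.31 beside 0.042 over all genes tested. In the labelled libraries against K562/IM, 14 of 89 were higher and 34 lower, beside 14.7% and 13.8%, with a median of -0.41 beside -0.007. In K562+L against K562, 2 of 84 were higher and 10 lower, beside 2.38% and 4.01%, with a median of -0.10 beside 0. The labelled libraries had 17 of 84 higher and 16 lower against K562, beside 14.9% and 8.91% (median 0.10 beside 0.020). Against K562+L they had 18 of 83 higher and 9 lower, beside 19.1% and 12.6% (median 0.17 beside 0.025). The shares of a comparison hold also for the counts of its single lists, above and below. A count near its share shows nothing particular to the list.

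**Figure D4:**
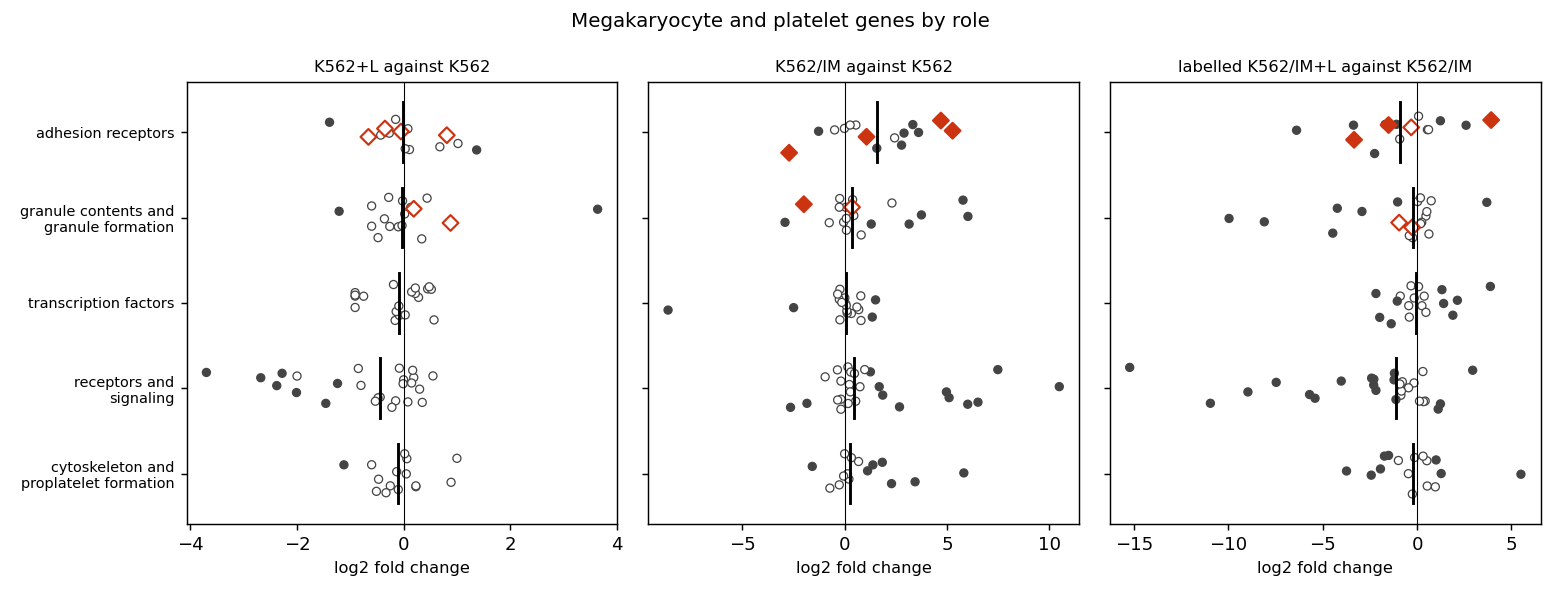
Log2 fold change of the tested genes of the 5 role lists in K562+L against K562, in K562/IM against K562 and for the labelled K562/IM+L libraries against K562/IM, with 1 symbol per gene and a separate scale in each panel. Diamonds are members, circles other genes, filled symbols called genes, and the vertical bar is the median of a list with its members. For adhesion receptors the bar lies above 0 in the middle panel and below 0 in the right panel, and the symbols farthest from 0 are genes with almost no counts in 1 of the groups, whose fitted value depends on the fit.

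Among 16 other adhesion receptors, 5 of the 11 tested were higher and 1 lower in K562/IM than in K562, and 2 were higher and 5 lower when the labelled libraries were set against K562/IM. PEAR1, a platelet receptor that signals on contact between platelets, rose from 3.15 to 21.6 CPM in K562/IM and was at 6.54 CPM in the labelled libraries. ESAM, an adhesion molecule of platelets and endothelium, rose from 0.811 to 6.08 CPM and was at 0.577 CPM in the labelled libraries. CD36, a scavenger receptor that erythroid precursors also carry, had the opposite course, with 13.8 CPM in K562, 5.71 CPM in K562/IM and 34.0 CPM in the labelled libraries. With lycorine in K562, GP6, the platelet collagen receptor, rose from 0.909 to 2.35 CPM, with a log2 fold change of 1.37 (SE 0.24, adjusted p = 0.0048), and CD226, a receptor of platelets and lymphocytes, fell from 1.46 to 0.558 CPM.

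Among the granule genes outside the members, 5 of the 17 tested were higher and 1 lower in K562/IM, and 1 was higher and 6 lower in the labelled libraries against K562/IM. RAB27B, a small GTPase of granule traffic, rose from 6.58 to 88.7 CPM in K562/IM, with a log2 fold change of 3.75 (SE 0.21, adjusted p = 6.7e-06), and was at 3.92 CPM in the labelled libraries. SPARC, a matrix protein stored in alpha granules, followed the opposite course, from 42.3 to 5.63 CPM and then 72.1 CPM. THBS1 fell in the first of these comparisons as SPARC did, but was not higher in the labelled libraries.

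Of the transcription factors, 2 of the 19 tested were higher and 2 lower in K562/IM than in K562, beside 13.9% and 5.29% of all genes. The ETS repressor ETV6 rose from 10.1 to 28.6 CPM. LMO2, a cofactor of GATA1 and TAL1, fell from 162 to 28.8 CPM and stood at 418 CPM in the labelled libraries. In the labelled libraries against K562/IM, 5 of 18 factors were higher and 4 lower, beside 14.7% and 13.8% of all genes. GFI1B, a repressor that both erythroid and megakaryocytic cells need, rose from 38.9 to 143 CPM, and CBFB, the partner of RUNX1, fell from 180.0 to 39.1 CPM. In K562+L against K562, NFE2, a factor of platelet release, had a log2 fold change of -0.91 (adjusted p = 0.00301), under the fold threshold. NFE2 averaged 129 CPM in K562, 68.8 in K562+L, 140.0 in K562/IM and 342 in the labelled libraries, where it was called higher than in K562/IM (log2 fold change 1.32, adjusted p = 3.5e-05). GATA1, the central factor of both lineages, was at 196 to 250 CPM on average in the 4 groups. Its log2 fold changes were -0.23 (adjusted p = 0.130) in K562/IM against K562 and 0.38 (adjusted p = 0.0110) in the labelled libraries against K562/IM, neither of them called. ETS1, another ETS factor, had 0 counts in all 3 K562/IM libraries and a mean of 0.556 CPM in K562, and ERG had none in any library.

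Receptors and signaling proteins were the longest of the role lists. In K562/IM against K562, 10 of the 27 tested were higher and 2 lower, and in the labelled libraries against K562/IM 3 were higher and 14 lower. P2RX1, an ATP-gated channel of platelets, rose from 1.89 to 64.7 CPM in K562/IM, with a log2 fold change of 5.10 (SE 0.16, adjusted p = 6.1e-07), and was at 0.120 CPM in the labelled libraries. LCP2, an adaptor downstream of the collagen receptor, rose from 0.849 to 77.1 CPM, with a log2 fold change of 6.51 (SE 0.20, adjusted p = 5.0e-07), and its labelled libraries, at a mean of 0.0374 CPM, were near the limit of a count of 0. F2RL3, a thrombin receptor, fell with lycorine in K562 from 31.6 to 6.07 CPM, and RASGRP2, an exchange factor that activates the fibrinogen receptor from within, from 7.93 to 1.23 CPM.

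Of the cytoskeletal genes, 6 of 16 were higher and 1 lower in K562/IM, and 3 were higher and 5 lower in the labelled libraries against K562/IM. TPM4, a tropomyosin, rose from 59.0 to 211 CPM and was at 62.1 CPM in the labelled libraries. WAS, an actin regulator of blood cells, rose from 0.302 to 17.3 CPM and was at 1.27 CPM in the labelled libraries. TUBB1, the beta-tubulin of the platelet microtubule coil, took another course, at 4.55 CPM in K562, 3.80 CPM in K562/IM and 170 CPM in the labelled libraries, with a log2 fold change of 5.51 (SE 0.16, adjusted p = 3.3e-07) in the last against K562/IM. Thus GP1BB, TUBB1, CD36, SPARC and LMO2 were called higher in these libraries against K562/IM, while ITGA2B, ITGB3, PEAR1, RAB27B and P2RX1 were lower.

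Of the 114 genes of the lineage in the table, members included, 26 were under 1 CPM in every library, and 6 of these had no count in any. The 6 were CLEC1B, PF4V1, PPBP, ERG, P2RY12 and TREML1. PPBP, a granule chemokine, and P2RY12, the ADP receptor of platelets, belong with PF4 and GP9 to the late products of the lineage. The genes under 1 CPM were of mixed kinds, with the transcription factors FLI1, ERG and ETS1 also among them. The platelet genes TUBB1 and GP1BB averaged 170 and 831 CPM in the labelled libraries. The share of all genes under 1 CPM was not counted, so that nothing particular to the lineage is read from the 26. The other genes under 1 CPM included GP5, the remaining chain of the glycoprotein Ib complex, SELP, the granule adhesion molecule P-selectin, and PLEK, a major platelet kinase substrate.

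The genes most like each member over the 12 libraries were ranked among the 13994 other genes that passed the filter, by Pearson's r of log2 CPM. The libraries share groups, so that r mostly describes the 4 group levels, and it is given without a test. For ITGA2B they were LRRC4B, LAPTM5 and PTGS1, with r of 0.9964, 0.9957 and 0.9942. PTGS1, the cyclooxygenase of platelets, stood at 1.14, 0.481, 73.7 and 4.44 CPM in K562, K562+L, K562/IM and the labelled libraries. In the same order LRRC4B stood at 0.335, 0.216, 28.5 and 1.36 CPM, and LAPTM5 at 5.83, 3.06, 552 and 22.3 CPM. LRRC4B and LAPTM5 are in none of the role lists, so that the pattern of ITGA2B was not limited to genes of the lineage. For ITGB3 the most similar genes included SLC24A1 and NBPF14 (r of 0.9894 and 0.9869). They were, for GP1BB, CAMSAP3, ANO9 and KPTN (0.9934, 0.9896 and 0.9873) and, for THBS1, TBCE, SEH1L and DNAJB6 (0.9887, 0.9864 and 0.9863). GP1BA, with DHX40, ZFYVE9 and GPM6B (0.9461, 0.9432 and 0.9359), and VWF, with ZSCAN5A, PCDH12 and MSANTD3-TMEFF1 (0.8440, 0.8429 and 0.8120), had less similar neighbours. Between members, r was 0.94 for ITGA2B with ITGB3, -0.66 for ITGA2B with GP1BB and -0.70 for ITGA2B with THBS1.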

How the data were processed

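RNA had been extracted with TRIzol, and libraries were made after poly(A) enrichment. The table the authors deposited holds counts, 1 whole number for each of 19447 gene symbols in each library. The submitters' processing notes name the build hg38 and the tools FastQC, STAR, StringTie and DESeq2, without versions or settings. How reads in overlapping genes were counted, and whether by strand, is not given in the sources used here. Of the 23289 counts between 1 and 25, 67.9% equalled a multiple of 4 or the number just after one, where 52% of whole numbers do, and the origin of this was not tested.

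Counts were analysed with R 4.3.3, edgeR 4.0.16 and DESeq2 1.42.0, and with Python 3.11.15, pandas 2.3.3 and matplotlib 3.10.9. Libraries were grouped by their labels. In each of 5 comparisons the 6 libraries were filtered over the whole table with filterByExpr (minimum count 10), scaled by TMM and tested by edgeR's quasi-likelihood F-test. P-values were adjusted over all genes tested by the Benjamini-Hochberg method, and a call needed an adjusted p below 0.05 together with a log2 fold change beyond 1 in size. The interaction used all 12 libraries, at an adjusted p under 0.05. FPKM was CPM per kilobase of merged exons in GENCODE release 29 (GRCh38), promoters came from RefSeq (GRCh38.p14), and correlations used log2 CPM with a prior count of 2. The edgeR fits of the 5 comparisons and of the interaction were tried on simulated counts, which left out genes of low count. The other steps were not tried in this way. The labels do not say that replicates were separate cultures, so that p-values measure only the spread between these libraries. An exact test of 3 against 3 cannot go below p = 0.1, and no batch or date is given.

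The members, and 5 role lists and 5 lists of other lineages, were chosen with earlier results of these data known. The genes named are the members, the called genes of lowest p (up to 2 per direction, role list and comparison), markers of other lineages, and the 3 genes most like each member. GATA1, GP5, SELP, PLEK and the genes without a count were named after their values were seen, and so were SEPTIN5, for its overlap with GP1BB, and ABCB1. Alternatives covered the test, normalization, filter, fold threshold, libraries in the fit, replicate number, division of counts by 4, and each library left out. Values of some genes named by these rules are not reported here.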

Additional observations from a re-analysis of the deposited data

Results flagged for a closer look

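The lines as labelled differed in their response to lycorine for 5 of the 6 members tested, by the interaction over all 12 libraries (edgeR, adjusted over 13995 genes, of which 61.7% passed). Each value is the log2 effect in the resistant line, as labelled, minus that in K562. It was -2.70 for ITGA2B (adjusted p = 2.1e-07), where the mean was lower with lycorine in both lines and by more in K562/IM. The ITGA2B difference in K562 was not called. The interaction was -1.48 for ITGB3 (adjusted p = 0.0233), and this value passed in some but not in all fits that left out 1 library. It was -1.14 for GP1BA (adjusted p = 0.0134) and -1.85 for THBS1 (adjusted p = 1.2e-04), both with a higher mean with lycorine in K562 and a lower mean in K562/IM. It was 4.26 for GP1BB (adjusted p = 4.5e-07), all of whose exon bases are shared with SEPTIN5 or with the readthrough transcript of both. For VWF it was -0.47 (adjusted p = 0.193). No group had more than 3 libraries, and outlying libraries were not tested for.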

How the results depend on the processing

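Without the fold threshold 3 members passed in K562+L against K562 in place of 0, and the genes called rose from 826 to 4821, from 2566 to 7661 (K562/IM against K562), from 3917 to 9169 (K562/IM+L against K562/IM), from 3162 to 7446 (K562/IM+L against K562) and from 4235 to 8982 (K562/IM+L against K562+L). The number of members called stayed within 1.5 times in the other 93 settings. Leaving out 1 library at a time it ran from 0 to 0, 4 to 5, 3 to 4, 3 to 4 and 4 to 4 in the 5 comparisons in that order, and from 4 to 5 for the interaction. Directions that turned belonged to uncalled members. Leaving out 1 library, ITGB3 in K562+L against K562 ran from -0.31 (without K562 replicate 3) to 0.23 (without K562 replicate 1) and was 0.18 without K562+L replicate 2. VWF in K562/IM+L against K562 ran from -0.09 (without K562/IM+L replicate 1) to 0.19 and was -0.04 without K562 replicate 2. In K562/IM+L against K562+L, GP1BA ran from -0.37 to 0.05 (without K562/IM+L replicate 2) and was 0.03 without K562+L replicate 1, and under upper-quartile normalization GP1BA was 0.10 and VWF 0.06.

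Upper-quartile normalization moved the median log2 fold change of all genes from 0.025 to 0.235 in that comparison, with 3133 higher and 1149 lower calls in place of 2555 and 1680. In K562/IM+L against K562 it moved the median from 0.020 to 0.171, with 2355 and 873 calls in place of 1977 and 1185, and for the interaction from -0.020 to 0.108. For single members, 7 other values lost a call and 7 gained one, and 541 kept direction and call. Correlations of same-numbered libraries ran from -0.227 to 0.150 over the 5 comparisons, with no common sign. In K562/IM+L against K562+L they were -0.00925, 0.132 and 0.150 for replicates 1, 2 and 3. Crossing replicates 2 and 3 gave -0.125 and -0.165. The replicate number as a block lowered the SE of GP1BB in that comparison from 0.21 to 0.069. Whether same-numbered libraries shared handling was not tested. With the replicate number as a block, 0, 5, 3, 4 and 4 members were called in the 5 comparisons and 5 passed the interaction, so that the block changed no count. The cause of these changes was not tested. Depth limits GP9, PF4 and FLI1, which no setting called.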
